A study of Mus musculus with 378 samples.

Results

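The genes described here encode the proteins of the cytosolic ribosome. They were chosen by symbol, as Rpl or Rps followed by a digit together with Rplp0, Rplp1, Rplp2 and Rpsa, leaving out symbols that hold -ps and the Rps6k kinases. The rule found 90 of the 22180 genes in the count table, 52 with large-subunit (Rpl) and 38 with small-subunit (Rps) names. Each sample was the islets of 1 mouse of the Diversity Outbred stock, which descends from several inbred founder strains and in which every animal has its own genotype. All mice, female and male, were kept on a high-fat, high-sugar diet with 45% fat, and no mice on another diet were analysed here. Poly-A RNA was sequenced, and the mice are described below by sex and by 4 bands of 100 mouse numbers, counted from number 21. Band 4 held 47 females and 47 males, band 1 held 46 females and 45 males, band 2 held 46 females and 48 males, and band 3 held 49 females and 50 males. The labels do not say what a mouse number stands for, and age is not given. Each mouse gave 1 library, so the spread over mice holds both biological and technical variation.

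The ribosome reads messenger RNA and joins amino acids into protein. Its small subunit decodes the message and its large subunit forms the peptide bond, and each carries a nearly complete set of these proteins in fixed proportion. Their messages are among the most abundant in most cells and are translated together under control of mTOR and the RNA-binding protein Larp1 through a run of pyrimidines at the very start of the message. Ribosomal protein messages have also been copied back into mammalian genomes many times as processed pseudogenes, intron-free copies that can differ from the parent gene by few bases or none. In islets, beta cells carry a heavy load of protein synthesis because they make insulin.

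Band 4 was the shallowest, with a median of 23989712 counts per library, against 34800450 over all libraries, which ranged from 15120262 to 68757118. Below, CPM are counts scaled to the library total with trimmed-mean (TMM) factors, and in the shallowest library 3 counts corresponded to 0.198 CPM before these factors. Beta cell markers, which define the islet, summed to between 82184 and 241285 CPM in females and between 82767 and 343036 CPM in males, while acinar markers of the surrounding exocrine tissue ranged from 85.6 to 43253 CPM in females and from 131.1 to 77334 CPM in males. All 6 alpha cell markers (median log2 difference 0.74) and all 5 delta and PP cell markers (0.50) rose in females, each at an adjusted p under 0.05 in edgeR's quasi-likelihood test. By the same test 7 of 10 beta cell markers (-0.17), all 7 endothelial markers (-0.25) and 4 of 5 red blood cell markers (-0.37) fell in females. Over all genes 23.01% rose and 27.6% fell in females by this test. The endothelial score was among the covariates of an alternative fit given with the sex differences below, and the part of the other markers was not tested. In bulk tissue, fewer cells of a type and less RNA per cell cannot be told apart. Of the females, 2 had under 1 CPM of Xist.

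Together the ribosomal protein genes took a small share of the counts. Their share ran from 0.917% to 1.75% in females, with a median of 1.19%, and from 0.927% to 2.24% in males, with a median of 1.15%. In band 4 it ran from 1.11% to 2.24% with a median of 1.28%, against 0.917% to 1.68% with a median of 1.14% in bands 1 to 3. The ranges of the sexes and of the bands overlap. The median gene of the group had 90.5 CPM, against 13.1 CPM for the median gene tested.

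Of the 90 genes, 77 encode proteins of a list of 79 core ribosomal proteins. The other 13 have similar names and, apart from Rps19bp1, are paralogs or copies. Rps19bp1 is a binding partner of Rps19 and not a ribosomal protein, while Rpl3l, Rpl22l1, Rps27l, Rpl7l1 and Rpl36al are paralogs with genes of their own. Fau, a core protein outside the symbol rule, is made as a fusion with a ubiquitin-like protein.

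Levels per length, given as TPM (counts divided by transcript length and scaled to the same total in every library, over all genes with a known length), differed widely between genes. Rps3a1 of the small subunit was highest, with a median level of 897 TPM and a range of 389.01 to 1825. Rpl4, a large-subunit protein lining the peptide exit tunnel, had a median of 833 (638 to 1220.2). Rps4x, the X-linked form of a small-subunit protein, had 795 (421 to 1352), and Rplp1, a protein of the acidic stalk that recruits elongation factors, had 770.3 (384.9 to 2318). Rpl41, the smallest protein of the ribosome, had 719 (89.2 to 2172). These ranges overlap, so the order of the top 5 holds for these medians alone. At the other end stood Rpl3l, a muscle form of Rpl3 with a median of 0.0599 TPM, then Rpl6l with 0.319, Rps3a3 with 1.02, Rps3a2 with 3.43 and Rpl12, a core protein of the stalk base, with 14.9 (3.80 to 139.7). Lengths came from the longest annotated transcript. With the principal coding transcript, 20 of 90 medians moved by more than 1.5 times, and the ranks of the 2 versions had a Spearman rho of 0.87 across genes. Both ends of the order changed. Rpl41 (714) then stood above Rps3a1 (686), and Rps14 (664), a small-subunit protein, took the third place. At the low end Rps19bp1 (13.2), Rpl5 (16.7) and Rps7 (19.7) then stood below Rpl12 (26.6).

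Ribosomal protein counts were rarely whole numbers. The deposited counts are estimates, and in such counts a fraction can arise where reads that fit several rows are divided among them. A fraction was present in 87.4% of the values of these genes, against 32.3% of all values in the table. The median gene of the group also had a higher level, as given above, and these shares were not matched for level. Here any departure from a whole number was counted, with a tolerance of 0. The value was fractional in every mouse for 51 of the 90 genes, against 15.2% of all genes. With departures of up to 0.01 taken as whole, these shares of values were 83.2% and 29.2%, and 0 of the 90 genes and 0.0451% of all genes were fractional in every mouse. At a tolerance of 0, 4 genes had no fractional value in any mouse, Rps9, Rps19bp1 and Rpl3l among them, and Rps27l had one in 0.265% of mice. Rps21 had fractions in 5.29% of mice and Rpl8 in 8.99%. In all, 9 genes had fractions in under 20% of mice, and 69 had them in at least 95%. At a tolerance of 0.01 these counts were 10 and 58.

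None of the 9 genes with few fractions had a close copy in the table. Annotated transcripts of the table's rows were compared with each coding sequence, and a row was called near-identical where at least 90% of bases matched over at least 80% of the coding sequence. By this measure 76 of the 90 genes had at least 1 near-identical row, with a median of 4 and up to 39 for Rpl21, and the genes and these rows made 457 rows in 84 families. Of the rows that are not among the 90 genes, all but 11 are annotated as pseudogenes. Fractions were present in a median of 100% of mice for the 76 genes and of 13.5% for the 14 without a near-identical row. Rplp2 and Rpl7l1 had fractions in every mouse with no near-identical row found.

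How close these rows are is seen in the coding sequences of Rps7, Rpl19 and Rpl24 beside their most abundant copies. Each stretch of 60 bases holds the first mismatch, shown in capitals, and bases are counted from the first base of the start codon.
Rps7, coding bases 1 to 60: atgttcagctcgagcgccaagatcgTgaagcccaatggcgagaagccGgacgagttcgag
Gm6472, aligned bases: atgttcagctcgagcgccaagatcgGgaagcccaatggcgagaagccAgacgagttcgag
Rpl19, 60 coding bases around the mismatch: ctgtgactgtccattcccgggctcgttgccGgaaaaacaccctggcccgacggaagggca
Rpl19-ps11, aligned bases: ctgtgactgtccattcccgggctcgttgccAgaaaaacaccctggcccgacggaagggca
Rpl24, 60 coding bases around the mismatch: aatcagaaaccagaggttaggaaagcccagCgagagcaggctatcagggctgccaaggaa
Gm9385, aligned bases: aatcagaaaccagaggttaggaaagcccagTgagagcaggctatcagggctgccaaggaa
Gm6472 on the X chromosome differed from Rps7 at 3 of 582 coding bases, among them T26G and G48A. Rpl19-ps11 on chromosome 8 differed from Rpl19 at 1 of 588 (G191A), and Gm9385 on chromosome 9 from Rpl24 at 1 of 471 (C313T). Rps12l1 on chromosome 7 and Rps12-ps3 on chromosome 19 matched every coding base of Rps12, which open as follows.
Rps12, coding bases 1 to 60: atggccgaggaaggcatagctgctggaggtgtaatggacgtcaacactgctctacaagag

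Rps12, a small-subunit protein at chr10:23785211-23787195 (GRCm38), was on in most mice and close to 0 in the others. In females it ranged from close to 0 to 205.05 CPM with a median of 71.8, and in males from close to 0 to 250.997 CPM with a median of 68.5. It had 3 counts or fewer in 50 females (26.6%) and in 48 males (25.3%). None of the 94 mice of band 4 was in this low state, which allows a share of up to 3.19%, and its lowest values there were 12.1 CPM in a female and 13.8 CPM in a male. All 98 low mice thus came from bands 1 to 3, spread over both sexes and each of these bands.

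The copy Rps12l1, at chr7:56014016-56014414, behaved in the opposite way. It had 3 counts or fewer in 34 of 47 females and 35 of 47 males of band 4, and in 47 mice of bands 1 to 3. No mouse had both genes low. Of the mice low for Rps12 (25.9%) and those low for Rps12l1 (30.7%), 0% were shared, and within bands 1 to 3 the 98 and 47 low mice did not overlap either. This is a description, and its cause was not tested. The row Rps12-ps3 also matched every coding base of Rps12, so both genes could be low in a mouse with the counts on that row. The coding sequences are the same, so how reads were divided between the rows and any change in the messages cannot be told apart.

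By the rule that at least 5% of mice have 3 counts or fewer and at least 5% have 5 CPM or more, 4 of the 90 genes switched between mice. These were Rps12, Rps12l1, Rps3a2 and Rpl37rt. The rule called 1.04% of all genes in the table, a background not matched for level. It also called 23 of the 134 rows named as ribosomal protein pseudogenes (-ps), which are not among the 90 genes. Of the 4 switching genes, Rps12l1, Rps3a2 and Rpl37rt are themselves copies. Rps3a2, an intron-free copy of Rps3a1 on chromosome 14, was low in 16 females and 14 males, lay under 10 CPM in 76.5% of mice, and reached 602 CPM in a male of band 1. Rpl37rt, a copy of Rpl37 on chromosome 5, was low in 13 females and 10 males and peaked at 136.06 CPM. For none of the 4 genes was a difference between the sexes detected in how often it was low (2-sided Fisher's exact tests, adjusted p = 0.815 for each). For Rps12 the shares were 26.6% of females and 25.3% of males, and for Rps12l1 31.9% of females and 29.5% of males. These tests pool the bands, in which low states differed in number. Rps12l1 was low in 10 of 46 females and 1 of 48 males of band 2, and in 8 of 46 females and 12 of 45 males of band 1. Within single bands none of the 16 tests passed after adjustment, the lowest being that of Rps12l1 in band 2 (p = 0.00335, adjusted p = 0.0537, 2-sided Fisher's exact test). For the other 5 pairs of switching genes the test of shared low mice did not pass (Fisher's exact test, adjusted p of 0.969 or 1 over 6 pairs).

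Genes that did not meet the switching rule also varied widely, some of them in steps. Rpl19, a large-subunit protein at chr11:98026710-98030492, had under 30 CPM in 40.5% of mice, between 30 and 100 CPM in 3 mice, between 100 and 200 CPM in 24.9% and 200 CPM or more in 33.9%. Rpl9 had between 10 and 30 CPM in 67 mice, none between 30 and 100 CPM, between 100 and 200 CPM in 55 mice and 200 CPM or more in 67.7%. Rpl24, at chr16:55966275-55971435, had between 10 and 30 CPM in 79 mice, between 30 and 100 CPM in 33.1% and between 100 and 200 CPM in 45.2%. For Rpl19 and Rpl9 the mice fell into separate clusters with few or none between them, while the values of Rpl24 were more graded. The ratio of the 90th to the 10th percentile of CPM (with 0.5 added) was 284.4 for Rps12, 165.6 for Rps12l1, 97.6 for Rps3a2, 57.5 for Rpl35, 56.4 for Rpl37, 46.02 for Rpl19, 29.2 for Rps7 and 20.3 for Rpl37rt. The median was 2.21 over the 90 genes and 1.85 over the 16927 genes tested, and 11 genes of the group exceeded 8, as did 2.65% of genes tested.

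Several of these genes were high where their copies were low. Over all mice, with sex and band means removed, the rank correlation between the gene and the sum of its near-identical rows was -0.77 for Rps12, -0.85 for Rpl19, -0.73 for Rpl37, -0.70 for Rpl35, -0.59 for Rps7 and -0.87 for Rpl24. It was -0.65 for Rps12l1, -0.39 for Rps3a2 and -0.73 for Rpl37rt. A sum can hide copies that run together, as the single row Rps12-ps3 had a rank correlation of 0.55 with Rps12l1. These are descriptions without a test, since the rows share a library and near-identical sequence. In the scatter of Rpl19 against its copies, some mice had the counts on Rpl19, some on the copies and some on both at a similar level.

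**Figure D1:**
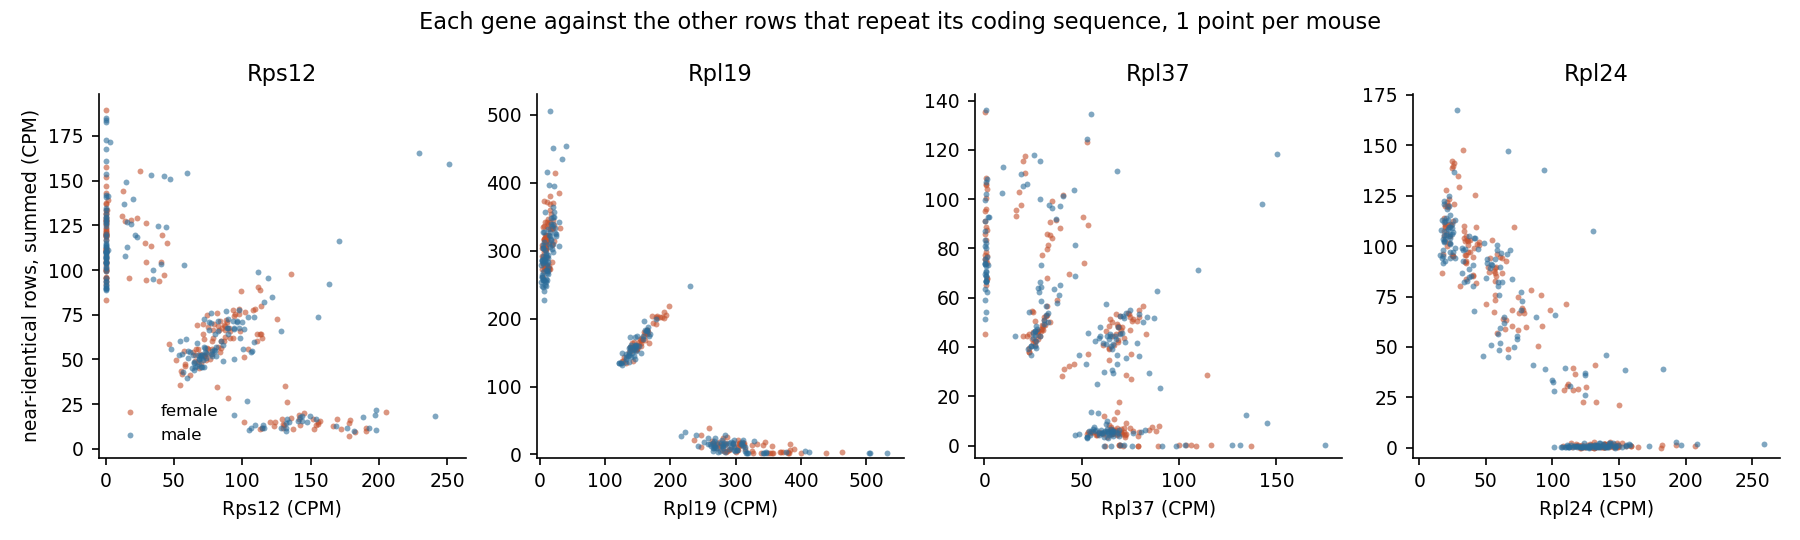
CPM of Rps12, Rpl19, Rpl37 and Rpl24 (horizontal) against the summed CPM of their near-identical rows (vertical), 1 point per mouse, coloured by sex. For Rps12 and Rpl19 most points fall into separate groups, while those of Rpl37 and Rpl24 are more graded. In these 4 genes high values of the gene go with low values of its copies.

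The sum of a gene and its near-identical rows varied less than the gene in most cases. The standard deviation of log2 CPM over mice, with sex and band means removed, was 4.40 for Rps12 alone and 0.29 for the sum. It was 2.32 for Rpl19 alone and 0.15 for the sum, 2.18 and 0.29 for Rpl37, 2.11 and 0.23 for Rpl35, 1.51 and 0.16 for Rpl9, 1.40 and 0.22 for Rps7, and 1.02 and 0.17 for Rpl24. The sum of the Rps12 family ranged from 83.4 to 410.5 CPM with a median of 137.2 CPM, and that of the Rpl19 family from 233.8 to 533 CPM with a median of 311.4 CPM. The sum was narrower than the gene in 70 of the 76 genes with copies, and the median standard deviation over the 76 was 0.41 for the genes and 0.22 for the sums, beside 0.24 for the 14 genes without copies. Of the 28 genes with copies whose standard deviation exceeded 0.5, none did as a sum, and no family met the switching rule. The copies were chosen after earlier results of these data were known, and summing rows that share reads narrows their spread by construction where the reads were divided differently between mice.

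**Figure D2:**
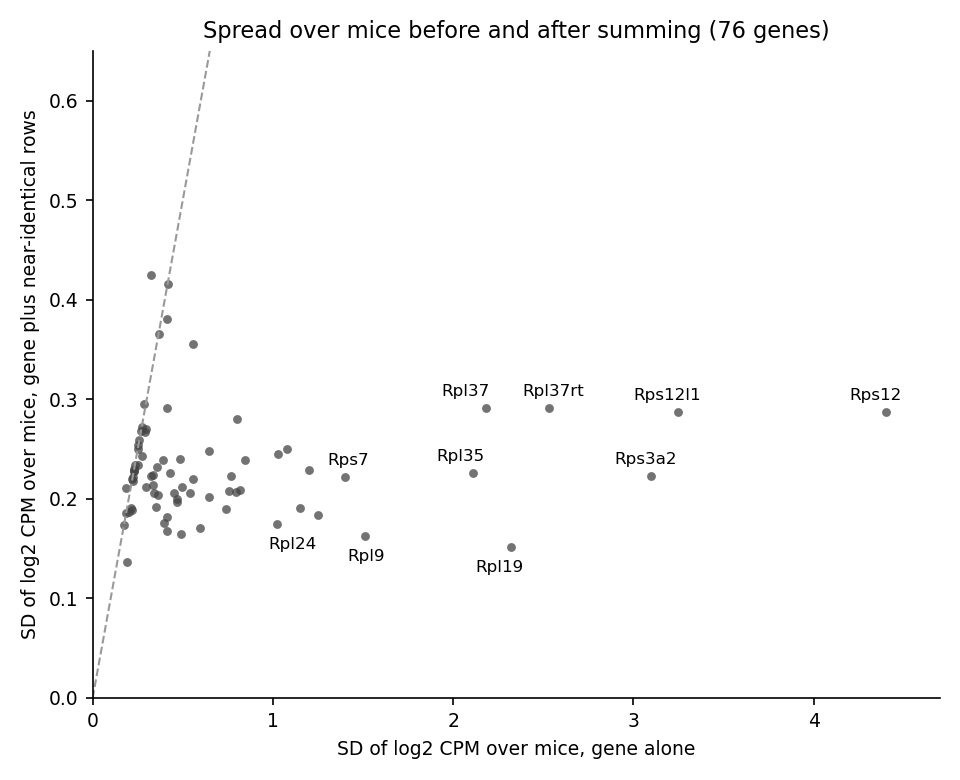
Standard deviation of log2 CPM over mice, with sex and band means removed, for each of the 76 genes with near-identical rows alone (horizontal) and summed with them (vertical). The dashed line marks equal spread; Rps12 lies at 4.40 alone and 0.29 summed.

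In 19 of the 90 genes the gene itself held under 50% of its family's counts in the median mouse. For Rpl10, a large-subunit protein encoded on the X chromosome, the gene had a median of 88.4 CPM and the row Rpl10-ps3 on chromosome 9, identical over the coding sequence and annotated as protein coding, had 395.3 CPM. For Rpl5, which carries 5S RNA into the ribosome, the gene held 6.23% of the sum and the pseudogene Gm15500 had 300.2 CPM against 20.98 CPM for Rpl5. Rpl12 held 11.2%, Rpl27 18.7% and Rps7 5.40%. The levels per length above are those of the named rows, so low values such as those of Rpl12, Rpl5 and Rps7 hold for the row and not for its family. With -ps rows alone, which 46 genes had, 37 genes were narrower as a sum, and the median standard deviation was 0.23 for the sums and 0.41 for the genes.

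The genes whose values ran most closely with or against the widely varying genes often lay near the gene or near one of its near-identical rows. For Rps12 the 5 highest rank correlations were with Slc18b1 (0.59), Vnn3 (0.44), Enpp1 (0.42), 9330159F19Rik (0.39) and Tmem200a (0.34), each within 10 megabases on chromosome 10. The lowest were with its own copies Rps12l1 (-0.68) and Rps12-ps3 (-0.44), then with Pex7, Akap7 and Ncoa7 on chromosome 10. Rpl19 ran with Cisd3 (0.40) on chromosome 11 and against Rpl19-ps11 (-0.84). Across Rps12, Rps7, the other 3 switching genes, Rpl35, Rpl37 and Rpl19, 80 places in these lists were filled by 67 different genes, since genes of 1 family share some. Of the 67, 9 were near-identical rows and 43 others lay within 10 megabases of the gene or of one of its near-identical rows. Of the 80 places, 27 were held by genes near the gene itself and another 27 by genes near a near-identical row alone. For Rps12l1 and Rpl35 none lay near the gene itself. Between 2.19% and 5.28% of all genes lay in these windows. Rps7 was the exception, with 1 neighbour and 1 near-identical row among its 10; its 5 highest included the ribosomal protein genes Rps29 (0.42), Rpl38 (0.39) and Rps21 (0.39).

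Between the sexes, Rps7 changed most. Rps7, a small-subunit protein at chr12:28630847-28635953, ranged from 2.11 to 155.1 CPM in females with a median of 7.75, and from 2.34 to 398.3 CPM in males with a median of 15.9. The log2 difference, female minus male, was -1.92 ± 0.17 (SE), with an adjusted p of 1.02e-23 in edgeR's quasi-likelihood test. Its size depended on the method, being -1.18 without the band covariate, -0.75 by limma-voom and -0.78 in the deposited variance-stabilised values, each past the test. The ranges overlap, and the highest values were in males. In bands 1 to 3, 0 females had 50 CPM or more, which allows a share of up to 2.13%, and 33 males did. In band 4, all 47 females and all 47 males did. The limit of 50 CPM was chosen after the values were seen, and no test was made of this count.

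The row with the most Rps7-like counts was Gm6472, a processed pseudogene on the X chromosome at chrX:152909505-152910155. In bands 1 to 3 it ranged from 91.5 to 270.4 CPM in females with a median of 168.5, and from close to 0 to 382.6 CPM in males with a median of 157.3. Of the 33 males of these bands with 50 CPM or more of Rps7, 28 had under 50 CPM of Gm6472, while none of the 110 males with less Rps7 did. In band 4, 0 of 47 females and 6 of 47 males had under 50 CPM of Gm6472. Over all bands Gm6472 was higher in females, by 0.25 ± 0.08 (SE) on the log2 scale (adjusted p = 0.00306, edgeR). The sum of Rps7 and its 4 near-identical rows ranged from 147.8 to 277.4 CPM in females with a median of 188.7, and from 140.8 to 486 CPM in males with a median of 184.8. Its sex difference of -0.03 did not pass the test (adjusted p = 0.298). Males carry a single X chromosome and females a pair, and whether founder-strain differences at Gm6472 moved with these values was not tested.

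**Figure D3:**
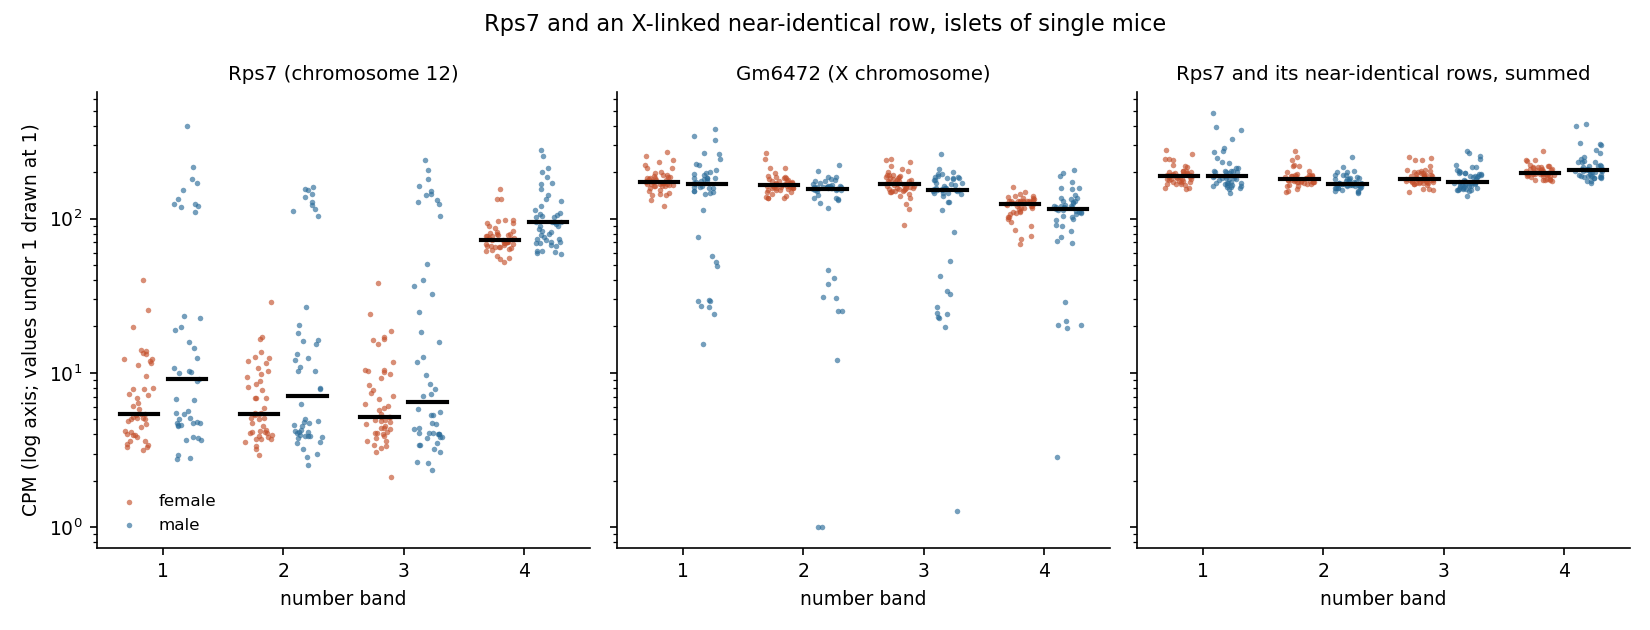
CPM (log axis) of Rps7, of the X-linked row Gm6472 and of the sum of Rps7 and its near-identical rows, by number band, with females left of males in each band, 1 point per mouse, bars at the medians and values under 1 CPM drawn at 1. In bands 1 to 3 a group of 33 males and no female lies at 50 CPM or more of Rps7, and some males lie low for Gm6472, while the sums of the sexes overlap throughout.

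Beyond Rps7, few ribosomal protein genes differed between the sexes, and by little. Of the 88 genes with enough counts to be tested, 7 rose and 6 fell in females, 14.8% in all, beside 50.6% of all genes tested. Rpl3l and Rpl6l were too low to be tested. The median difference was -0.00 for the group and -0.01 over all genes, and 6 of the 88 differences exceeded 1.1-fold, passing the test or not. On simulated data for 16927 genes, 40 of 50 genes changed by 1.1-fold were recovered. That share was not measured for the ribosomal protein genes, many of which vary more between mice. With sex and band means removed, the standard deviation of log2 CPM exceeded 0.5 in 31 genes of the group and 1 in 15. Its median was 0.34 over all genes tested. For such variable genes, a difference of 1.1-fold that was not called cannot be taken as absent.

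The genes that fell in females beside Rps7 included Rplp0, Rps27l, Rpl36a and Rpl4. Rplp0, the base of the acidic stalk, had 412.6 CPM at the median (280.6 to 624) in females and 432 CPM (303.6 to 1342) in males, a difference of -0.14 ± 0.03 (adjusted p = 9.01e-07). Rps27l, a p53-inducible paralog of Rps27 with no near-identical row, had 37.2 CPM (28.7 to 63.7) in females and 38.95 CPM (28.9 to 95.9) in males, a difference of -0.11 ± 0.03 (adjusted p = 1.48e-04). Rpl36a differed by -0.08 and Rpl4 by -0.06, with adjusted p of 0.0248 and 0.00737. Without band 4 neither passed the test, with differences of -0.03 and -0.02 (adjusted p = 0.567 and 0.371), and Rpl36a did not pass by limma-voom (0.147) or in the deposited variance-stabilised values (0.105). The sexes overlapped widely in each, and every adjusted p is from edgeR's quasi-likelihood test.

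The genes that rose in females were Rpl5, Rpl27, Rps15a, Rpl3, Rpl14, Rpl22l1 and Rpl7l1. Rpl3, a core protein near the peptidyl transferase centre, had 394.4 CPM (282.3 to 637) in females and 380.7 CPM (265.7 to 601) in males, a difference of 0.08 ± 0.02 (adjusted p = 4.44e-04, edgeR). Rpl14 had 189.9 CPM (106.6 to 320.9) in females and 175.7 CPM (109.4 to 334.9) in males, a difference of 0.08 ± 0.02 (adjusted p = 0.00169, edgeR). Rpl22l1, the paralog of Rpl22, differed by 0.08 and Rpl7l1, a paralog of Rpl7 found in ribosome precursors, by 0.05. Rpl5 had the widest gap, 0.18 ± 0.05, with 22.4 CPM (10.1 to 97.1) in females and 20.1 CPM (9.69 to 83.1) in males. Its sum with near-identical rows stood at -0.01 and did not pass the test (adjusted p = 0.834, edgeR). With scores of 5 non-endocrine cell types as covariates, only Rpl3 and Rpl14 of these 7 genes passed. The adjusted p was then 0.117 for Rpl5, 0.702 for Rpl27, 0.0585 for Rps15a, 0.369 for Rpl22l1 and 0.106 for Rpl7l1 in edgeR's test.

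Over the 83 families tested as sums, 8 rose and 7 fell in females, against 51.1% of all genes called in that fit, and 11 of these 15 families carry the name of a gene called alone. The largest was Rplp0, which fell by 0.14, and it was the only one of the 83 sums to exceed 1.1-fold. For the 88 genes alone the counts moved with the band. Within band 1 no gene rose and 3 fell, and 16.9% of all genes were called. Within band 2, 15 rose and 2 fell (27.6% of all genes called), within band 3 1 rose and 1 fell (15.5%), and within band 4 none rose and 14 fell (25.4%). With the scores of acinar, duct, endothelial, stellate and macrophage markers as covariates, 2 rose and 5 fell (36.97%).

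**Figure D4:**
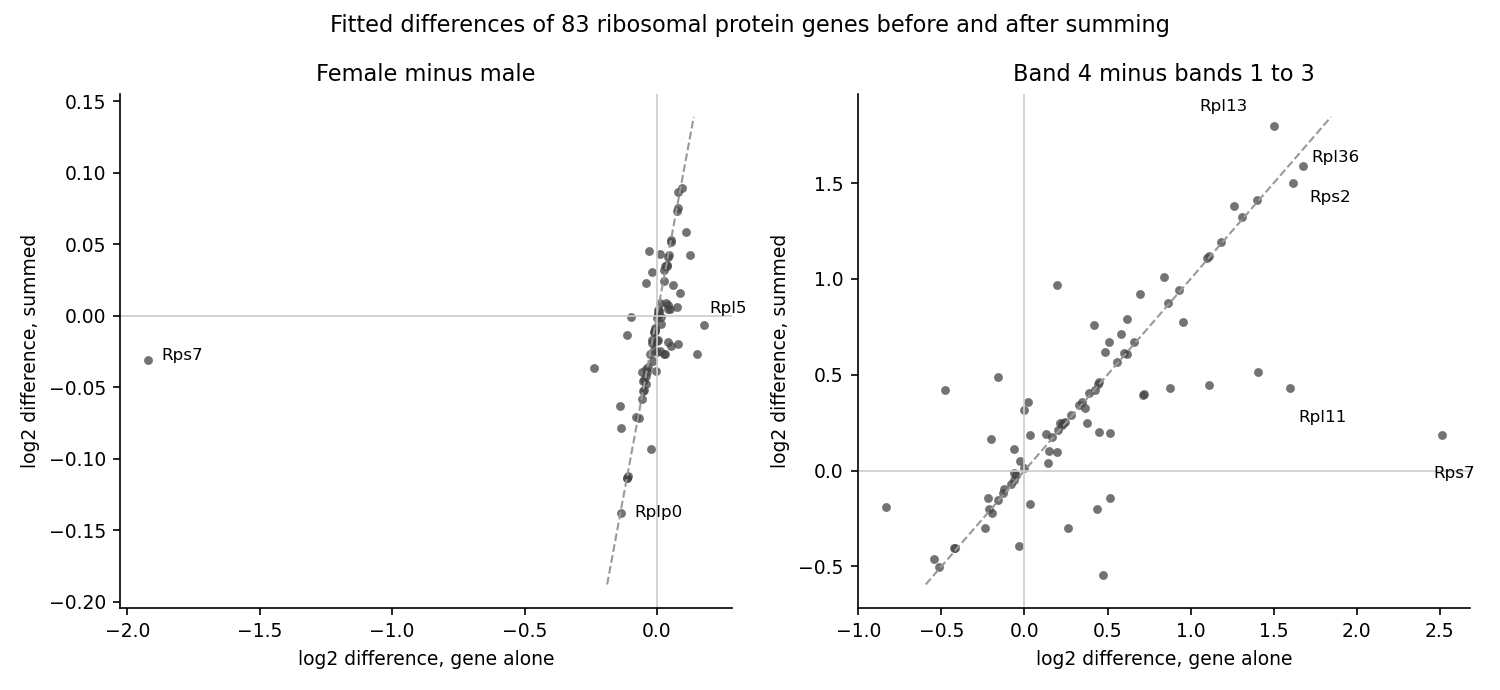
Fitted log2 differences of 83 ribosomal protein genes alone (horizontal) and summed with their near-identical rows (vertical), female minus male on the left and band 4 minus bands 1 to 3 on the right, with dashed lines at equality. Rps7 lies at -1.92 alone and -0.03 summed for sex, and at 2.51 alone and 0.18 summed for band 4.

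Band 4 stood apart from the other mice, in these genes as in the whole table. Of the 88 genes, 57 rose and 18 fell in band 4 against the mean of bands 1 to 3, 85.2% in all, beside 83.6% of all genes tested. Over all genes 41.2% rose and 42.3% fell. The median difference was 0.34 for the group and -0.01 over all genes. Rpl36, a large-subunit protein, had 84.4 to 209.8 CPM in band 4 with a median of 119.4, and 16.3 to 75.7 CPM in bands 1 to 3 with a median of 34.6. All 94 mice of band 4 lay above every other mouse, and the difference was 1.68 ± 0.05 (adjusted p = 3.13e-124, edgeR's quasi-likelihood test). Rpl13 had a median of 172.4 CPM (131.5 to 519.7) in band 4 and 62.7 CPM (45.3 to 150.3) in bands 1 to 3, and Rps2, which lies at the entry of the message channel, had 249.4 CPM (45.04 to 354.3) in band 4 and 76.2 CPM (27.9 to 175.9) in bands 1 to 3. As sums with their near-identical rows, Rpl36, Rpl13 and Rps2 differed by 1.59, 1.80 and 1.501.

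Other large band 4 differences were smaller in the sums, though these passed the test as well. Rps7 had 52.6 to 276.9 CPM in band 4 with a median of 78.2, and 2.11 to 398.3 CPM in bands 1 to 3 with a median of 5.69, a difference of 2.51 for the gene and 0.18 for the sum (adjusted p = 4.03e-10, edgeR). The difference for the gene was 3.31 in females and 1.39 in males. Rpl11, which binds Mdm2 when ribosome assembly is disturbed, differed by 1.597 alone and 0.43 summed, and Rpl35 by 1.41 alone and 0.51 summed (adjusted p of the sums 1.92e-54 and 2.53e-54, edgeR). Rps12l1 had a median of 0.00270 CPM in band 4 and 27.2 CPM in bands 1 to 3, a fitted difference of -6.43 that depends on the prior count, while the Rps12 family rose by 0.40. Rps27rt, a copy of Rps27 on chromosome 9, had a median of 4.45 CPM in band 4 and 41.6 CPM in bands 1 to 3, with 36 of the 94 mice of band 4 below every other mouse. Its family, which Rps27 leads, rose by 0.43. Of the 83 families, 59 rose and 20 fell in band 4, with a median difference of 0.29, and 83.6% of all rows tested in that fit were called.

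The band 4 differences moved with base composition. Across all 16867 tested genes with an annotated transcript, the band 4 difference had a Spearman correlation of 0.76 with the transcript's GC content, and across the 88 ribosomal protein genes one of 0.42, and of 0.46 across the 83 sums. Genes are not independent replicates, and no test is attached. Median GC content was 50.8% in the group and 49.3% over all genes. Band 4 also had the lower depth given above. In band 4, 10 of 12 tested acinar markers fell (median -0.64) and all 5 red blood cell markers rose (0.56), beside 41.2% of all genes that rose and 42.3% that fell. Of the alpha cell markers 4 of 6 rose and 1 fell (0.82), and of the beta cell markers 6 rose and 4 fell (0.33). With the scores of acinar, duct, endothelial, stellate and macrophage markers as covariates, 58 of the 88 genes rose and 16 fell in band 4 (81.5% of all genes called). The part of the red blood cell, alpha and beta cell markers was not tested. Whether band 4 differs in the animals, the tissue or the libraries cannot be told apart here. In the variance-stabilised values the authors deposited, 0 of the 88 genes and 0 of all genes tested differed between band 4 and the other bands (limma, 0 at an unadjusted p under 0.05 as well).

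Ribosomal protein genes varied together from mouse to mouse, and did so far more clearly as sums. Over the 3828 pairs of the 88 genes the median Pearson correlation of log2 CPM, with sex and band means removed, was 0.16, against -0.00 over all pairs of tested genes, and 88.5% of pairs were positive. Over the 3403 pairs of the 83 sums the median was 0.66 and 97.8% of pairs were positive. The same genes share library and depth in every mouse, so these are descriptions with no p. Within a sex and band, over 45 to 50 mice, the median for the genes alone ran from 0.12 in band 2 males to 0.34 in band 4 males.

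Genes without copies were prominent among those most correlated with the rest. Rpl32 had the highest median correlation with the rest of the group (0.42), and Rpl22 (0.42), Rpl13a (0.40) and Rps3 (0.40) were also among the highest. Of these, Rpl32, Rpl22 and Rps3 have no near-identical row. The lowest were Rpl9 (-0.02), Rpl37rt (0.00), Rps12 (0.01) and Rps4l (0.02). As a sum, Rps12 reached 0.65 and Rpl9 0.74. Rps4l, an intron-free relative of Rps4x with no near-identical row, stayed at 0.08 among the sums.

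**Figure D5:**
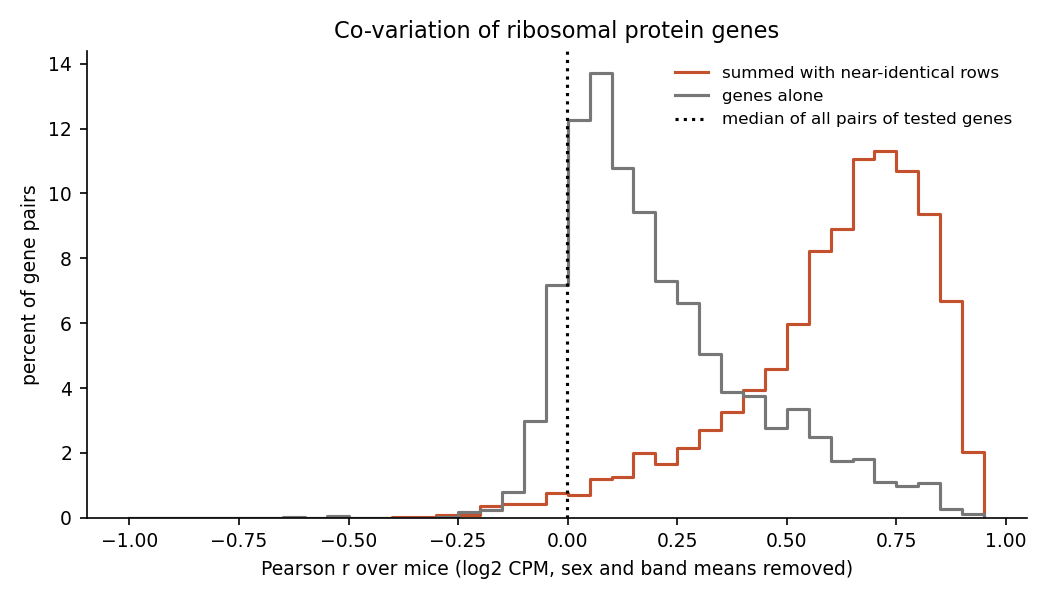
Distribution of the Pearson correlation over mice between pairs of ribosomal protein genes alone (3828 pairs) and summed with near-identical rows (3403 pairs), as percent of pairs per bin, with the median of all pairs of tested genes dotted. The medians are 0.16 alone and 0.66 summed.

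Of the fixed pairs, Rplp1 and Rplp2, which sit side by side on the ribosomal stalk, ran most closely together (Pearson r = 0.80 and Spearman rho = 0.77, each with p = 1e-05, the smallest the permutations can give, and adjusted p = 2.33e-05 over 7 pairs). Without the 2 mice farthest from the median of Rplp1, r was 0.79, and within a sex and band it ran from 0.42 to 0.90. Rps27 and Rps27l had r = 0.43 and rho = 0.42, and Rpl22 and Rpl22l1 r = 0.40 and rho = 0.30, each at the same adjusted p in 2-sided permutation tests within sex and band. Within a sex and band r ran from 0.06 to 0.79 for the first of these and from -0.07 to 0.75 for the second. Without the 2 farthest mice r was 0.46 and 0.32. Rps4x and Rps4l ran against each other (r = -0.16, adjusted p = 0.00497; rho = -0.19, adjusted p = 5.6e-04; r = -0.15 without the 2 farthest mice; -0.45 to 0.21 within a sex and band; permutation tests). Rpl36a and Rpl36al had r = 0.17 (adjusted p = 0.0015, permutation test), rho = 0.11 (adjusted p = 0.0443) and a range of -0.18 to 0.44 within a sex and band. Rpl7 and Rpl7l1 had r = -0.09 (adjusted p = 0.113, permutation test) and rho = 0.10 (adjusted p = 0.0443), which differ in sign. For Rps12 and Rps7 the test did not pass (adjusted p = 0.446 for r and 0.263 for rho, permutation tests). No pooled r is given for this pair, since the values of Rps12 fell into separate clusters, and within a sex and band r ran from -0.10 to 0.23. Summed with near-identical rows, as a description with no test, r was 0.62 for Rps12 and Rps7, 0.61 for Rps27 and Rps27l, 0.64 for Rpl36a and Rpl36al and 0.21 for Rpl7 and Rpl7l1. It was 0.80, 0.40 and -0.16 for the pairs led by Rplp1, Rpl22 and Rps4x. Rpl10l and Rpl39l were not analysed here, and Rpl3l was too low.

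The start of the message was examined for the pyrimidine run that marks these genes. RefSeq start sites (GRCm38.p6) were matched by symbol for 65 of the 90 genes. A run of at least 8 pyrimidines (C or T) on the gene's strand within 20 bases of the annotated start was present in 29 of the 65 (44.6%), against 16.3% of all 27025 promoters. The windows below show 4 genes with a run and 2 without, from 20 bases before to 20 after the start, with the longest pyrimidine run in capitals.
Rpl4, chr9:64173367-64173407, plus strand: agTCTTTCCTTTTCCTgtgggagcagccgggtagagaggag
Rps12, chr10:23787189-23787229, minus strand: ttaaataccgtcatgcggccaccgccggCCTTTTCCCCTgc
Rps9, chr7:3704021-3704061, plus strand: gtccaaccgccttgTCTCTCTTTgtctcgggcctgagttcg
Rpl22l1, chr3:28805488-28805528, plus strand: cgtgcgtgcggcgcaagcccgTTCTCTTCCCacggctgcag
Rps7, chr12:28635933-28635973, minus strand: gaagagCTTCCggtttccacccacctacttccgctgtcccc
Rpl19, chr11:98026690-98026730, plus strand: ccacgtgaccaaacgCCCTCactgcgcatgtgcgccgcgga
The run was 14 bases long in Rpl4, 11 in Rps12, 9 in Rps9, 10 in Rpl22l1 and 5 in Rps7 and Rpl19. A match describes these letters alone, and annotated starts can lie some bases from the start used in islets.

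Counts for other genes of the translation machinery are set beside the 23.01% of all genes that rose and the 27.6% that fell in females, and no test between lists was made. Of 28 tested ribosome biogenesis genes, 22 rose and 1 fell in females, with a median difference of 0.08, against -0.01 over all genes. Gnl2, a nucleolar GTPase of large-subunit assembly, had 99.3 CPM at the median in females and 88.7 CPM in males (0.17 ± 0.02, adjusted p = 6.78e-13), and Nop56, a core protein of box C/D particles, had 106.2 CPM in females and 92.3 CPM in males (0.19 ± 0.03, adjusted p = 1.49e-10). Ncl and Nolc1 rose by 0.12 and 0.16. Of 13 genes that control ribosomal protein synthesis, 5 rose and 5 fell. Larp1 fell by 0.17 in females (155.3 CPM in females, 175.5 CPM in males) and Eif4ebp1, an inhibitor of cap-dependent translation, by 0.39 (19.2 CPM in females, 25.97 CPM in males), while Rheb, the activator of mTOR, rose by 0.18 and Tsc2, its inhibitor, fell by 0.08. These calls are from edgeR's quasi-likelihood test, and the lists were chosen with earlier results of these data known.

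Of 18 translation factor genes 3 rose and 4 fell in females, among them Eef2, which moves the ribosome along the message, which fell by 0.13 (1023 CPM in females, 1103 CPM in males; adjusted p = 9.81e-10, edgeR), and Eif3f, which fell by 0.09. Hnrnpa1 and Npm1 in that list rose by 0.12 and 0.09. Of 77 mitochondrial ribosomal protein genes 18 rose (23.4%) and 10 fell, a share of risen genes near that of all genes. The 4 with the smallest adjusted p, Mrps18b, Mrpl41, Mrps6 and Mrpl19, were higher by 0.13, 0.14, 0.17 and 0.08. Fau did not pass the test (0.16 with adjusted p = 0.327, edgeR). From mouse to mouse, the mean of the summed ribosomal protein genes had a Pearson correlation of 0.70 with the mean of the translation factors and 0.61 with that of the mitochondrial ribosomal proteins. With ribosome biogenesis the Pearson correlation was -0.12 and the Spearman rho 0.02, which differ in sign. Pearson values with the cell type marker lists lay between -0.21 and 0.29. These are descriptions over mice that share a library for both measures. Within a sex and band the first ran from 0.40 to 0.96, the second from 0.32 to 0.88 and the third from -0.63 to 0.54.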

How the data were processed

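Islet poly-A RNA was sequenced. The authors deposited expected counts per gene without scaling, as the values show. Per the submitters' processing notes, DESeq2 and the build GRCm38 were used. The sources used here name no aligner or counter. A second deposited table holds variance-stabilised values on a log2 scale, used as an alternative. Sex came from the sample titles and number bands from mouse numbers. The members and lists were chosen with earlier results of these data known.

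Counts were rounded to whole numbers and tested with edgeR 4.0.16 (quasi-likelihood, TMM, filterByExpr by sex, sex and band as terms, Benjamini-Hochberg over 16927 genes, threshold 0.05); DESeq2 1.42.0 and limma 3.58.1 were alternatives. The fit was tested on simulated data. Near-identical rows were found with blastn against GENCODE M21 transcripts, and 4 multi-exon coding rows were dropped. Co-variation used log2 CPM with a prior count of 2, and pairs 100000 permutations. Of 34020 values of these genes, 270 lay between 0 and 1e-06 counts. Limits on shares of mice cover counting error only. The SE and p-values of the fitted differences rest on the spread between mice, which holds biological and technical variation. Fisher's exact tests compare counts of mice, and the permutation tests shuffle mice within sex and band.

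Genes named were Rps12 and Rps7, the 5 highest and 5 lowest per length, those called by sex, the 8 largest in band 4, the switching genes and 8 widest, those with most and fewest fractions, fixed pairs, and up to 4 genes per list by adjusted p. Other genes were named after their values were seen. Some genes that meet these rules are counted but not reported here by name.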

Additional observations from a re-analysis of the deposited data

Results flagged for a closer look

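The sex difference of 3 ribosomal protein genes differed between the number bands in the test of the sex by band terms (edgeR's quasi-likelihood test, Benjamini-Hochberg adjustment), which called 1.12% of all genes. For Rps7 the adjusted p was 0.00327, and the difference, female minus male, was -2.54 in band 1, -2.21 in band 2, -2.40 in band 3 and -0.47 in band 4. For Rpl10 the adjusted p was 0.0372, with 0.07, 0.14, -0.02 and -0.08 in bands 1 to 4. For Rpl6, a large-subunit protein, the adjusted p was 0.0447, with -0.06, 0.03, 0.03 and -0.20 in bands 1 to 4. The part of read division among near-identical rows in these differences was not tested.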

How the results depend on the processing

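No paired analysis was possible because each mouse number occurs once and the sexes share none. The band term in the fits does not separate sex from the order of mouse numbers within a band. The count of genes called by sex (13) was 7 with cell type scores as covariates, 3 in band 1 alone and 2 in band 3 alone, and between 12 and 17 in the other settings. The band 4 count (75) was 0 in the deposited variance-stabilised values and between 68 and 79 otherwise. The cause was not tested. The share of counts (1.17%) was 1.38% of a total without Ins1, Ins2 and Gcg. Switching genes (4) were 2 with 10% of mice, 12 with low set relative to the 90th percentile, and 0 as sums. The median correlation (0.157) was 0.656 as sums, 0.262 in band 1 males and 0.342 in band 4 males. Summing rows and testing single bands were by construction on fewer rows or mice.

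Reported sex differences of single genes that changed sign did so within bands or as sums. In single bands these were Rpl14 (-0.0227, band 4), Rpl36a (0.0461, band 2), Rpl4 (0.00047 in band 2 and 0.0048 in band 3), Rpl5 (-0.0604, band 3), Rps15a (-0.0253, band 4) and Rps12 (-0.129, -0.0296 and -0.110 in bands 1, 3 and 4), which is not called. As sums these were Rpl5 (-0.00642) and Rps12 (-0.0270). Of the values of reported genes by sex over all settings, 76.4% kept direction and call and 38 lost the call. Sums, tests of low states within bands, the setting without the 2 females under 1 CPM of Xist and the lengths of principal transcripts were chosen after seeing the data. Depth limits values near 0: 3 counts are 0.198 CPM in the shallowest library.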
